A study of Drosophila melanogaster with 12 samples.

Results

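The cytosolic ribosomal protein genes of Drosophila melanogaster were described across 12 RNA libraries from bam mutant gonads. Members were the genes whose FlyBase symbol begins with RpL or RpS and a digit, or with RpLP. Some duplicated genes that the rule names, among them the RpL22, RpS19, RpS10 and RpS15A copies, were left out. Other duplicated copies, such as RpL37-1 and RpL37-2, were kept as members. The rule used names and no measured value. It found 78 genes among the 17559 gene IDs of the count files, of which 45 were named RpL, 29 RpS and 4 RpLP. Another 4 ribosomal protein genes that fit the rule by name, RpL19, RpL27A, RpL31 and RpS12, were not analysed here because the files and the symbol table gave them different gene IDs.

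There were 4 groups, each with 3 biological replicates: bam mutant ovaries, bam mutant testes, and ovaries of bam mutant females with RNA interference (RNAi) against mCherry or against Sxl. All flies carried the bam mutation, controls included, were 1 to 3 days old and were kept at 25 °C, and the ovaries came from virgins. In the ovary, bam is needed for germ cells to leave the stem cell state. Sxl encodes the RNA-binding switch of female identity, and mCherry is a foreign sequence that serves as the RNAi control. The bam allele, the driver of the RNAi constructs and the number of animals per library were not given in the sources used here.

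Every cytosolic ribosome is built from a small subunit, which reads the mRNA, and a large subunit, which joins amino acids and carries a stalk of P proteins that recruits elongation factors. Most of these proteins are needed in equal numbers, and in flies the loss of 1 gene copy of many of them gives the slow, thin-bristled Minute phenotype. Early germ cells are known for active ribosome production, and in the fly ovary the germline depends on it to progress past the stem cell state.

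Depth was 16152230 to 25097969 reads assigned to genes per library. Levels are in CPM, counts per 1000000 assigned reads after scaling between libraries, as mean ± SD (n = 3), and the error of a fold change is the standard error (SE) on the log2 scale. Sxl RNA stood at 377 to 475 CPM in bam ovaries, 494 to 536 CPM in mCherry RNAi ovaries, 139 to 224 CPM in Sxl RNAi ovaries and 47.3 to 124 CPM in testes. CG15930, used here as a male germline marker, stood at 395 to 487 CPM in testes, 224 to 334 CPM in Sxl RNAi ovaries and 13.3 to 29.3 CPM in the other ovaries. It was 1 of 6 listed testis germline genes. Of 5 tested, 4 were called higher in testes than in bam ovaries, beside 16.4% of all genes. Of 4 tested, CG15930 was the only 1 called higher in Sxl RNAi than in mCherry RNAi ovaries, beside 0.119% of all genes. The summed level of 8 ovarian follicle and eggshell markers was 6857 to 7871 CPM in bam ovaries and 175 to 218 CPM in testes. In these bulk samples, fewer cells of a type and less RNA per cell cannot be told apart.

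Ribosomal protein genes were among the most abundant transcripts of every group. Of the 100 genes with the highest level per kilobase of transcript over the 12 libraries, 68 were members. Ranked within a group, the count was 70 in bam ovaries, 66 in testes, 68 in mCherry RNAi and 69 in Sxl RNAi ovaries. The median level of the 74 members that passed the filter on low counts was 2398 CPM per kb. By role, it was 2281 CPM per kb for 43 large subunit genes, 2702 CPM per kb for 27 small subunit genes and 2553 CPM per kb for 4 genes named as stalk proteins. RpL41, whose tiny protein sits at the subunit interface, was highest at 9423 CPM per kb. It was followed by RpL39, a protein of the exit tunnel, at 4223 CPM per kb and by the stalk protein gene RpLP2 at 3752 CPM per kb. RpL10, which joins the large subunit late, stood at 3709 CPM per kb and RpS7, a small subunit protein, at 3559 CPM per kb.

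A few members lay far below the rest. RpL37-2, a second gene for the protein of RpL37-1, averaged 79.9 CPM per kb over the 12 libraries. RpLP0-like, whose yeast relative Mrt4 is an assembly factor that holds the place of P0, averaged 107 CPM per kb. RpL24-like, whose yeast relative Rlp24 holds the place of the RPL24 protein, averaged 313 CPM per kb. RpL34a averaged 548 CPM per kb and RpS9 averaged 922 CPM per kb. The remaining 4 of the 78 members did not pass the filter and had almost no reads. RpS28a had 25 counts over all 12 libraries, RpS28-like 8, RpL7-like 2 and RpL10Aa 1, where 3 counts in the shallowest library correspond to 0.186 CPM.

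**Figure D1:**
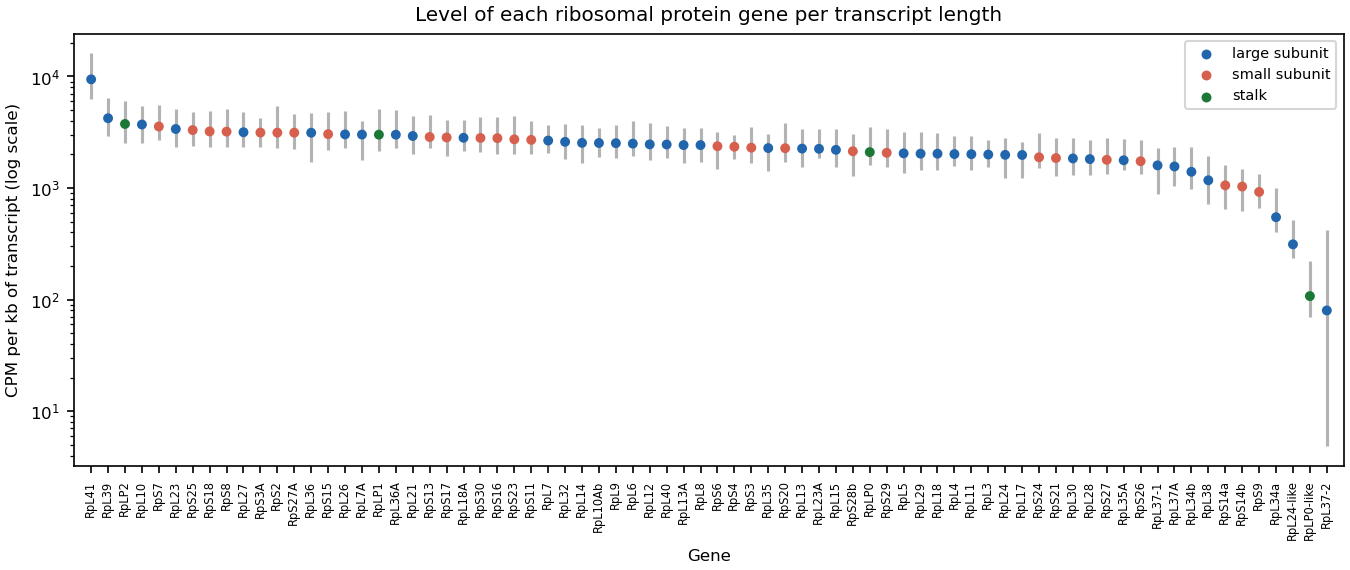
Level of each of the 74 ribosomal protein genes that passed the filter, in CPM per kb of transcript on a log axis, ordered by the mean of 12 libraries. Points are means, coloured by subunit, and grey lines run from the lowest to the highest library. Most genes lie close to the median of 2398 CPM per kb, RpL41 stands above them at 9423, and RpL37-2 is lowest and has the widest range.

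Summed over the 78 members, 10.05% to 17.4% of assigned reads fell on ribosomal protein genes. The share was 12.6%, 12.6% and 17.4% in bam ovaries 1 to 3 and 11.9%, 15.7% and 10.05% in testes. The mCherry RNAi ovaries gave 10.97%, 14.9% and 11.2%, and the Sxl RNAi ovaries 12.8%, 12.5% and 13.3%. The 4 groups overlapped, and counting error was small beside the differences between replicates, with a 95% Wilson interval of 17.34% to 17.37% for bam ovary 3. Per kilobase of transcript, the members' share of the sum was 20.6% to 24.0% in testes and 25.0% to 34.0% in the 9 ovary libraries, which did not overlap. Without CG18628, a short transcript abundant in testes, the testes held 25.3%, 29.1% and 23.4% and overlapped the ovaries at 25.1% to 34.0%. The ratio of large to small subunit reads, with the genes named RpLP left out, was 1.47 to 1.48 in the 3 testes. It was 1.54 to 1.58 in the 9 ovary libraries. These ranges did not overlap, and no test was run on the ratio.

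Bam ovary 3, bam testis 2 and mCherry RNAi ovary 2 stood apart from their groups, and results that rest on them are given with and without them. They were picked by the members' own level, so counts of members called without them are not independent of that choice. All 74 members were highest within their group in each of these 3 libraries, against 45.1%, 48.9% and 42.0% of all genes. This follows in part from how the libraries were picked. All 74 were lowest in bam testis 3, which was not among the libraries left out together. Within testes, 56 members spanned more than 2-fold between the lowest and the highest library, with a median span of 2.08-fold. In the other groups 1 member each did so, RpL37-2 in bam ovaries (2.30-fold) and Sxl RNAi ovaries (2.25-fold) and RpL38 in mCherry RNAi ovaries (2.01-fold).

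Ribosomal protein genes moved together between replicates. Their median SD of log2 CPM within groups was 0.36, against 0.23 for 2031 other genes of at least 100 CPM. When each gene was expressed as a share of all member reads, the median SD fell to 0.064. This scale removes any shift common to the members, and no other gene set was divided by its own sum. RpL37-2 kept the widest spread on that scale (SD 0.38), followed by RpS4 (0.17), RpL38 (0.17) and RpL41 (0.15).

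Transcript length moved with this spread. Members are short, with a median transcript of 698 nt against 1817 nt for all genes, and 63 of the 74 were under 1 kb. In bam testis 2 the members had a median log2 deviation of 0.57 from the group mean. There, 162 other genes under 1 kb had 0.51, 70 mitochondrial ribosomal protein genes 0.41 and 1297 other genes of 2 kb or more -0.27. Here and below, the other short and long genes are those of at least 100 CPM, not all genes of that length. In bam ovary 3 these values were 0.36, 0.27, 0.28 and -0.22, and in mCherry RNAi ovary 2 they were 0.38, 0.27, 0.19 and -0.16. The same testis 2 library had a summed level of 6 male accessory gland genes of 1792 CPM, against 144 and 67.4 CPM in testes 1 and 3. The part of length and of accessory gland RNA in the spread of the members was not tested.

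**Figure D2:**
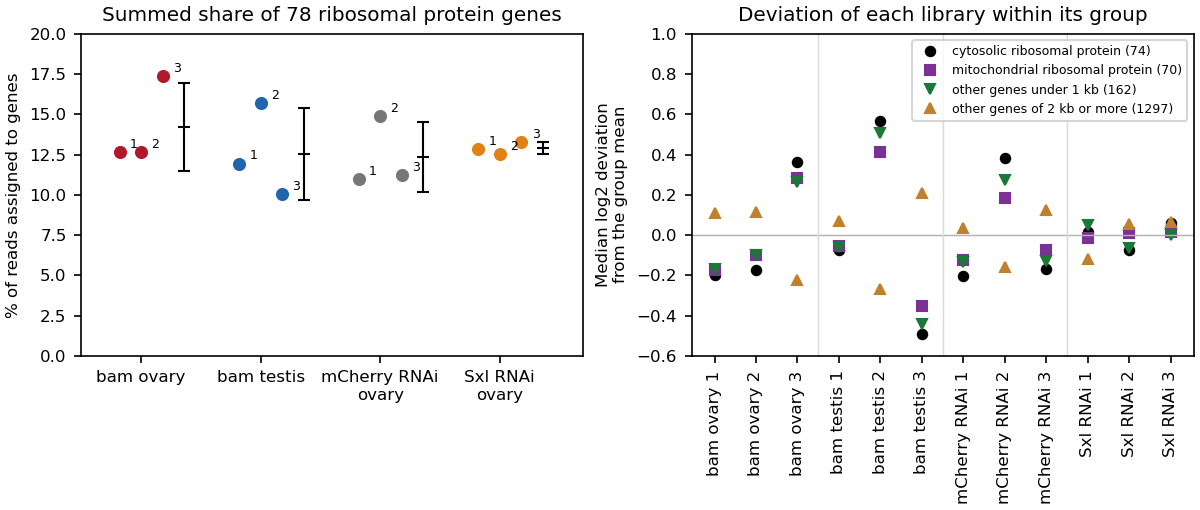
Left, share of assigned reads on the 78 ribosomal protein genes in each library (points, numbered by replicate), with the mean and SD of each group (bars). Right, median log2 deviation of each library from its group mean for members, mitochondrial ribosomal protein genes, other genes under 1 kb and other genes of 2 kb or more. Members and other short genes deviate in the same direction in bam ovary 3, testis 2, testis 3 and mCherry RNAi ovary 2, and long genes deviate the opposite way.

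**Figure D3:**
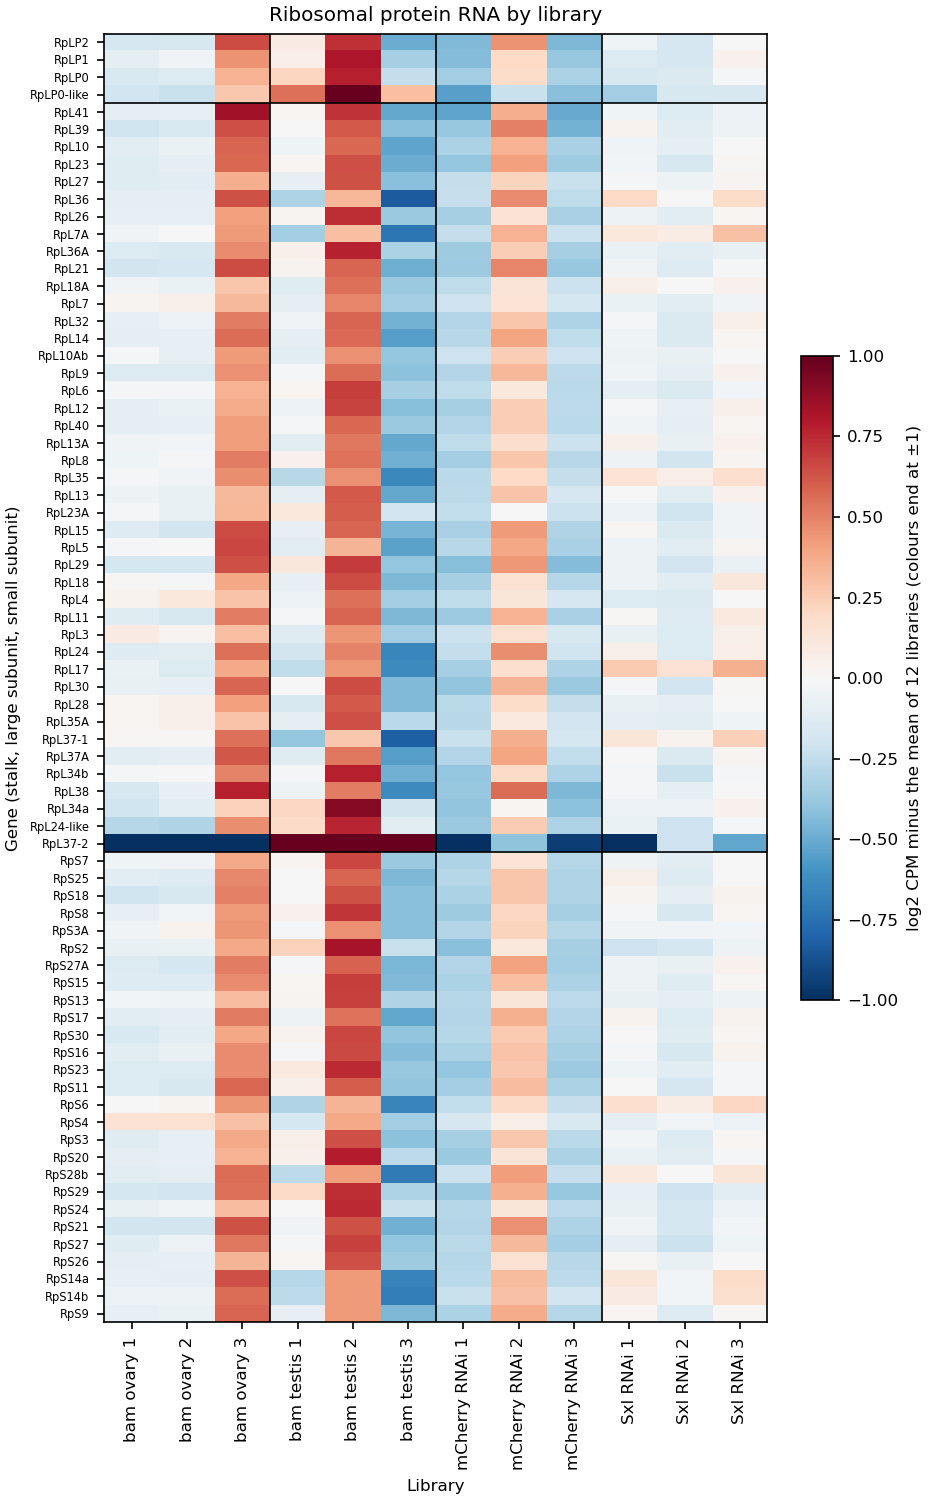
Level of each of the 74 tested genes (rows, grouped as stalk, large and small subunit) in each library (columns), as log2 CPM minus the mean of the 12 libraries, with colours ending at -1 and 1. The columns of bam ovary 3, testis 2 and mCherry RNAi ovary 2 are high in nearly every row, and RpL37-2 is the row in which testes differ most from ovaries.

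The first comparison set bam testes against bam ovaries and addressed the differences between the sexes in bam mutant gonads. Whether the germ cells of both sexes had stopped at the same stage was not tested. Of the 74 members, 1 was higher in testes and 0 were lower, in a comparison in which 32.7% of the 9738 genes tested passed the threshold of an adjusted p under 0.05 (16.4% higher, 16.3% lower). The median log2 fold change of the members was -0.02, beside 0.01 for all genes, and 2 members had an unadjusted p under 0.05. A median 95% interval of a member reached 0.72 to either side of its log2 fold change, so changes smaller than this were not detectable for most members at this spread. The interval is not adjusted for the number of genes tested, so a call needed a larger change still.

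RpL37-2 was the member that changed with sex. The gene (FBgn0034822) lies on chromosome arm 2R from 23100057 to 23100478, minus strand, in the Ensembl annotation of BDGP6. It stood at 2.05, 2.76 and 4.71 CPM in bam ovaries and at 105, 179 and 73.3 CPM in bam testes. The mCherry RNAi ovaries held 4.19, 7.94 and 5.45 CPM and the Sxl RNAi ovaries 4.05, 9.08 and 7.32 CPM. Every testis library was above every ovary library. The log2 fold change of testes over bam ovaries was 5.20 ± 0.46 (SE), a 36.9-fold difference (edgeR quasi-likelihood test, Benjamini-Hochberg adjusted p = 0.000400). Markers of other cell types moved with sex as well. All 6 male accessory gland genes were higher in testes, with sums of 144, 1792 and 67.4 CPM against 0.619 to 4.07 CPM in bam ovaries. All 7 muscle genes were lower in testes, at 800 to 1015 CPM against 5156 to 7426 CPM, and so were all 8 follicle and eggshell genes. Without testis 2, where accessory gland RNA was highest, the log2 fold change of RpL37-2 was 4.82 (adjusted p = 0.000254). The part of these cell types in its level was not tested.

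RpL37-1, the X-linked gene for the same protein, carried most of the RNA in both sexes. Its level was 1457, 1458 and 2112 CPM in bam ovaries and 1105, 1741 and 818 CPM in testes, and the groups overlapped. RpL37-2 made up 8.74% ± 0.544 (SD, n = 3) of the reads of the pair in testes and 0.184% ± 0.041 in bam ovaries. The corresponding shares were 0.396% ± 0.051 in mCherry RNAi and 0.432% ± 0.177 in Sxl RNAi ovaries. The lowest share, 0.140% in bam ovary 1, rested on 43 reads of RpL37-2 and had a 95% Wilson interval of 0.104% to 0.189%.

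**Figure D4:**
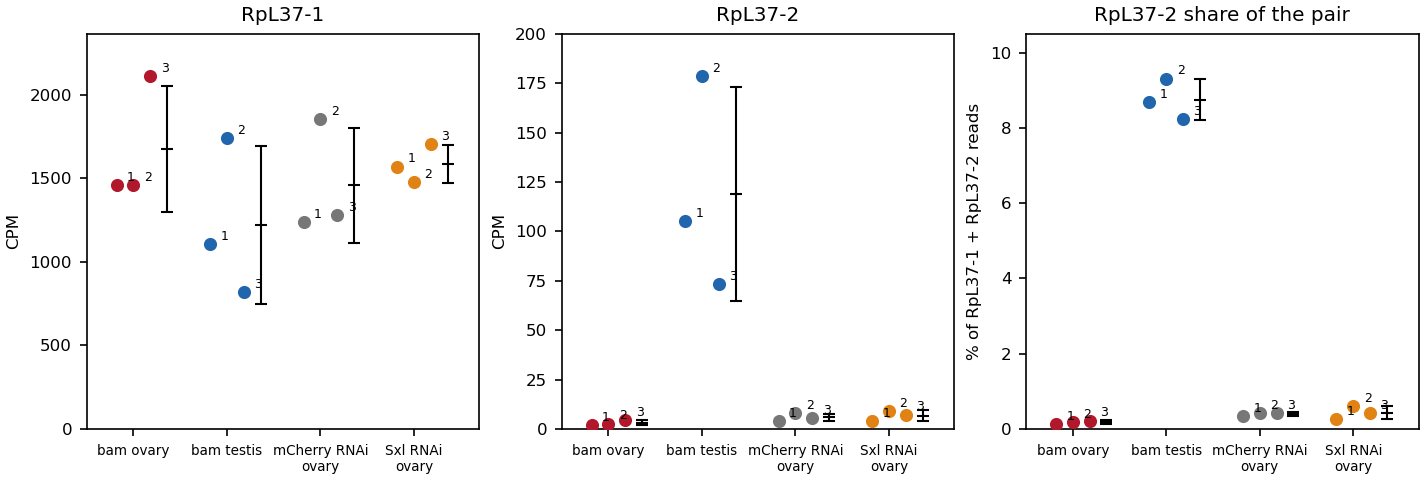
Level of RpL37-1 and of RpL37-2 in CPM, and the RpL37-2 share of the reads of both genes in percent, in each library (points, numbered by replicate) with the mean and SD of each group (bars). The 3 testes hold RpL37-2 at 73.3 to 179 CPM and all 9 ovary libraries at 9.08 CPM or below, while RpL37-1 overlaps between the groups.

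Among the 4 genes named RpLP, RpLP0-like had the largest log2 fold change. It stood at 84.3, 82.3 and 116 CPM in bam ovaries and 141, 211 and 119 CPM in testes, so that the groups did not overlap. Its log2 fold change was 0.72 ± 0.24 (SE) with an edgeR adjusted p of 0.0623, over the threshold. It passed without bam ovary 3 and testis 2 (0.64 ± 0.13, adjusted p = 0.0133, where 18.9% of all genes were higher). Those libraries were picked by the members' own level, so this p-value is not independent of that choice. RpLP0-like also passed in DESeq2 (adjusted p = 0.0244, 18.8% of all genes higher) and in the fit of all 12 libraries (0.0160, 20.2% higher). RpL37-2 and RpLP0-like were the 2 members whose testes and ovaries did not overlap, against 48.2% of all genes. The stalk protein genes proper overlapped between the sexes. RpLP0, the base of the stalk, stood at 2333, 2358 and 3305 CPM in bam ovaries and 3006, 4453 and 2200 CPM in testes, and RpLP1 and RpLP2 had log2 fold changes of 0.11 and 0.01.

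Without RpL37-2, log2 fold changes ran from -0.48 for RpL37-1 to 0.72 for RpLP0-like. The median was -0.07 over the large subunit genes and -0.003 over the small subunit genes. RpS2 had a log2 fold change of 0.22, RpL3, which helps to shape the peptidyl transferase centre, -0.13, RpL41 -0.15 and RpL5, which binds 5S rRNA, -0.33. None of these passed the threshold. The direction of the members' median also depended on the libraries: it ran from -0.34 to 0.20 when each replicate was left out in turn. Other genes under 1 kb had a median of 0.38 in this comparison, mitochondrial ribosomal protein genes 0.30 and other genes of 2 kb or more -0.14.

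The 9 X-linked members lay at the lower end of this range. They were RpL7A, RpL17, RpL35, RpL36, RpL37-1, RpS6, RpS14a, RpS14b and RpS28b, and grouping by chromosome was chosen after their values were seen. All 9 had a negative log2 fold change, from -0.48 to -0.18 with a median of -0.33, while the 65 autosomal members had a median of -0.01. Over all 1656 X-linked genes tested the median was -0.41 and 75% were negative, so the X-linked members lay near the level of their chromosome. None of the 9 passed the threshold, with edgeR adjusted p-values of 0.270 for RpL37-1, 0.378 for RpL7A and 0.398 for RpS6, the small subunit protein phosphorylated downstream of TOR.

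Library scaling bore on these calls. When library size was set to the summed member counts, an alternative chosen after the data were seen that asks how members differ relative to each other, 17.7% of all genes were called (10.6% higher, 7.03% lower). RpL37-2 and RpLP0 (log2 0.30 ± 0.08 SE, adjusted p = 0.0484) were higher in testes on that scale. RpL37-1 (-0.43 ± 0.11, adjusted p = 0.0343) and RpL7A (-0.32 ± 0.08, adjusted p = 0.0387) were lower, and both are X-linked. When a trend of level on transcript length was removed from each library, 50.4% of all genes were called. Then 2 members were higher, RpL37-2 and RpLP0-like, beside 27.1% of all genes, and 20 of 74 members (27.0%) were lower, beside 23.4% of all genes. The 20 included all 9 X-linked members, where 45.2% of the other X-linked genes were called lower.

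Members with a similar second copy or a -like relative were also compared by how the summed reads of each pair divided. RpS14b, the neighbour of RpS14a on the X chromosome, took 42.5% ± 1.15 (SD, n = 3) of the reads of that pair in bam ovaries and 42.6% ± 0.402 in testes. In mCherry RNAi and Sxl RNAi ovaries it took 43.2% ± 0.766 and 42.3% ± 0.337. RpL34a took 23.3% ± 0.951 of the RpL34 reads in bam ovaries and 28.7% ± 1.18 in testes, 24.4% ± 1.03 in mCherry RNAi and 26.5% ± 1.33 in Sxl RNAi ovaries. RpL24-like took 11.7% ± 0.388 of the summed reads of RpL24 and RpL24-like in bam ovaries and 16.2% ± 1.26 in testes. RpLP0-like took 3.42% ± 0.0605 of the summed reads of RpLP0 and RpLP0-like in bam ovaries and 4.71% ± 0.358 in testes. Both -like genes are relatives of assembly factors rather than second copies, and a share can change through either gene of its pair. The bam ovary and testis ranges of the RpL34, RpL24 and RpLP0 divisions did not overlap, and no test was run on them. For single genes, the levels of 48.2% of all genes did not overlap in this comparison. Near-identical copies can lose or exchange reads: 7.30% to 12.6% of the reads of a library did not align uniquely and were assigned to no gene. Reads of overlapping neighbours on the other strand cannot be told apart either, since the library kit does not mark strand.

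The second comparison set Sxl RNAi against mCherry RNAi ovaries and addressed the effect of lowering Sxl in females. No member passed the threshold, where 0.209% of 10059 genes did (21 genes). RpL17 had an unadjusted p under 0.05 and was the 1 member that did, and DESeq2 also called 0 members while it called 3.25% of all genes. The members' median log2 fold change was 0.06, beside 0.01 for all genes, and 64 members were positive and 10 negative. A median 95% interval reached 0.43 to either side.

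The individual values were close to 0. RpS21 was lowest at -0.06 and RpL17 highest at 0.41 ± 0.17 (SE; edgeR adjusted p = 0.420). RpL17 stood at 1310, 1846 and 1332 CPM in mCherry RNAi and 1972, 1822 and 2106 CPM in Sxl RNAi ovaries, and the groups overlapped through mCherry RNAi ovary 2. No member had groups that did not overlap, against 17.8% of all genes. RpL37-2, at 5.86 ± 1.91 CPM in the control and 6.82 ± 2.56 CPM after Sxl RNAi (SD, n = 3), had a log2 fold change of 0.24 ± 0.35. All 9 X-linked members were positive, with a median of 0.15, beside 0.05 for all 1711 X-linked genes tested. Most autosomal members were positive too: 10 of 65 were negative, and their median was 0.05. Without mCherry RNAi ovary 2, all 74 members were positive with a median of 0.28, other genes under 1 kb had a median of 0.21, and again no member was called, beside 0.225% of all genes. The RpS6 level was 2113, 2856 and 2129 CPM in mCherry RNAi ovaries and 2805, 2629 and 2891 CPM in Sxl RNAi ovaries.

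The sex effect and the Sxl effect were compared in 1 fit of all 12 libraries. They differed for 25.6% of 10382 genes and for 1 member, RpL37-2, whose sex effect exceeded its Sxl effect by 5.01 ± 0.61 (SE) on the log2 scale (edgeR adjusted p = 0.000146). All 9 X-linked members had a negative difference, with a median of -0.47, beside -0.44 for 1749 X-linked genes. The largest were -0.57 for RpL37-1, -0.55 for RpL17 and -0.54 for RpS6. Without bam ovary 3, testis 2 and mCherry RNAi ovary 2, which were picked by the members' own level, 28.8% of all genes and 12 members were called. RpL37-2 was the higher one, and the 11 lower ones were the 9 X-linked members, RpL28 and RpS4. In the same fit 31.2% of the X-linked genes outside the members were called lower, as were 16.1% of all genes. Relative to the summed member counts, 5 members were called beside 15.5% of all genes: RpL37-2, and as lower RpL7A (-0.44), RpL17 (-0.48), RpL37-1 (-0.50) and RpS6 (-0.46).

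**Figure D5:**
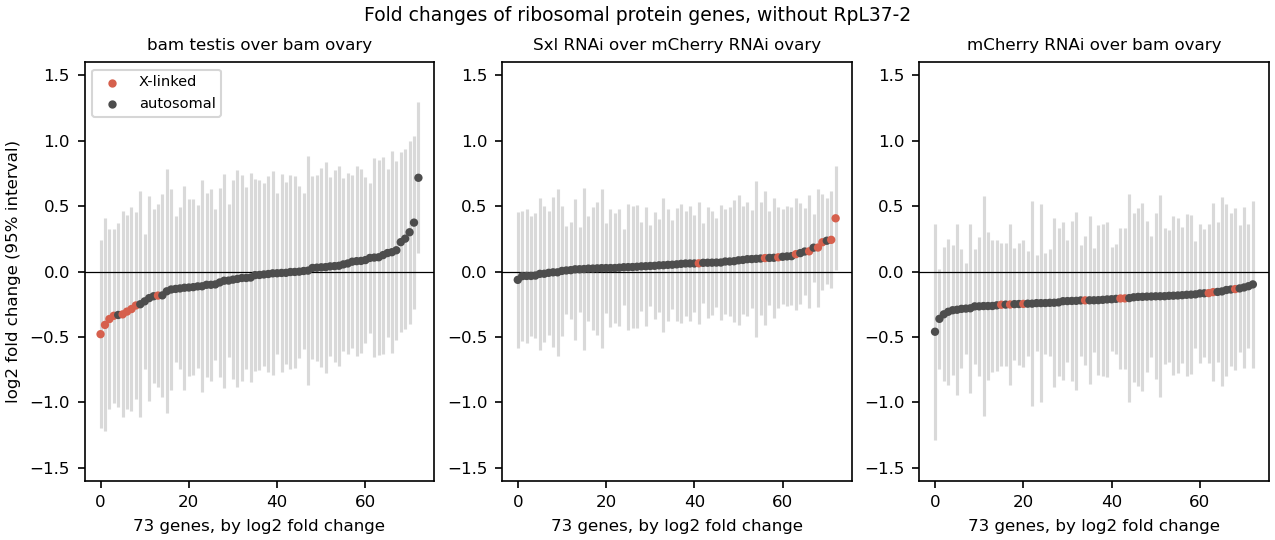
Log2 fold change of 73 tested members (without RpL37-2) in the 3 comparisons, ordered within each panel, with 95% intervals (grey) and X-linked genes in red. X-linked genes lie at the low end for testes over ovaries, from -0.48 to -0.18. For Sxl RNAi all X-linked genes are positive, as are most autosomal genes. Nearly all intervals include 0.

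The third comparison, mCherry RNAi over bam ovaries, gives the background between female genotypes. It shares the bam ovaries with the sex comparison and the mCherry RNAi ovaries with the Sxl comparison. No member passed the threshold, where 6.11% of 9940 genes did (2.32% lower). The log2 fold change was below 0 for 73 of the 74 members, with a median of -0.22 beside -0.01 for all genes. A median 95% interval reached 0.55 to either side. RpL41 was lowest at -0.46 ± 0.35 (SE), with 2708, 2725 and 5152 CPM in bam ovaries and 1994, 3695 and 2031 CPM in mCherry RNAi ovaries. RpS4 was the 1 member whose groups did not overlap, against 31.1% of all genes, with 2757, 2775 and 3051 CPM in bam ovaries and 2217, 2610 and 2244 CPM in mCherry RNAi ovaries. RpL37-2 was the 1 positive member, at 0.88 ± 0.37 (edgeR adjusted p = 0.217), and it passed with the length trend removed (1.03, adjusted p = 0.0326), where 7.71% of all genes were higher. Mitochondrial ribosomal protein genes had a median of -0.22 and other genes under 1 kb -0.13.

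This comparison changed most when the libraries that stood apart were left out. Without bam ovary 3 and mCherry RNAi ovary 2, 56 of the 74 members (75.7%) were lower in mCherry RNAi ovaries, beside 9.02% of all genes, with 2 libraries per group. Their median was -0.21, about the same as with all libraries. RpL41 was then at -0.43 ± 0.04 (SE; edgeR adjusted p = 0.00127), RpLP1 at -0.34 ± 0.04 (0.00467), RpS4 at -0.31 ± 0.04 (0.00442) and RpS2 at -0.30 ± 0.04 (0.00475). RpL37-2 was higher, at 1.01 ± 0.28 (0.0482), beside 903 of the 10031 genes tested. In that fit 16.8% of other genes under 1 kb and 17.1% of mitochondrial ribosomal protein genes were lower. Marker genes also differed between these groups when all libraries were used. Of 8 follicle and eggshell genes 3 were lower in mCherry RNAi ovaries, with sums of 4769 to 6143 CPM against 6857 to 7871 CPM and a median log2 fold change of -0.69. Of 5 fat body and hemocyte genes 2 were lower, NimC1 and Tsf1. The other genes, Fbp1, Lsp2 and Hml, were higher without passing the threshold, and the median log2 fold change over the 5 was 0.28. The list's sums were 526 to 658 CPM against 1337 to 1458 CPM. Tsf1, which encodes an iron-binding transferrin, made up most of that fall, at 194 against 1078 CPM (log2 -2.48). The part of these marker genes in the members' change was not tested. The 2 libraries left out were picked for the members' own level, and without bam ovary 3 alone the members' median was 0.01, so the direction rests on which libraries are kept.

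Among duplicated ribosomal protein genes that the rule left out, RpL22-like (log2 5.30) and RpS10a (1.32) were higher in testes and RpL22 was lower (-1.68), where 32.7% of all genes were called in either direction. RpL22-like stood at 1347 CPM on average in testes and 33.9 CPM in bam ovaries, and RpL22 at 268 and 847 CPM. None of these 3 genes passed in either comparison between ovaries.

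Of 30 tested genes of ribosome assembly and RNA polymerase I, 7 were higher in testes and 0 lower, with a median log2 fold change of 0.18, beside 16.4% of all genes higher and 16.3% lower. They included Nop56, a core protein of the box C/D complexes that methylate rRNA (498 against 324 CPM, log2 0.61), and eIF6, which keeps new large subunits from joining early (151 against 89.1 CPM, log2 0.74). The nucleolar genes Nnp-1 (0.70) and pths (0.74) were also among them. In mCherry RNAi over bam ovaries, 3 of the 30 were lower, beside 2.32% of all genes: Polr1H, a subunit of RNA polymerase I (-1.17), Nop60B, the rRNA pseudouridine synthase (-0.58), and eIF6 (-0.55). None passed after Sxl RNAi.

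The shares of all genes, 16.4% higher and 16.3% lower in testes, also stand beside the next lists. Of 27 initiation factor genes, eIF1A was higher (0.51) and eIF5 lower (-0.49) in testes, and of 13 elongation and termination genes the ribosome rescue factor HBS1 was higher (0.70). The elongation factor gene eEF1alpha2 fell from 22.5 CPM in bam ovaries to 11.3 CPM in mCherry RNAi ovaries, the 1 gene of its list lower there beside 2.32% of all genes. Among 17 genes of the TOR and Myc growth pathways, Nprl3, part of the complex that inhibits TORC1, was higher in testes (0.45). foxo, the transcription factor restrained by insulin signalling, was lower (-1.10), as was Thor, the translation repressor 4E-BP (-0.89). Trf2, Dref and M1BP, factors known at ribosomal protein gene promoters, did not pass in any comparison, and nor did Xrp1 and Irbp18, which act in cells short of ribosomal proteins. Xrp1 stood at 320 CPM on average in bam ovaries, 363 in testes, 530 in mCherry RNAi and 426 in Sxl RNAi ovaries.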

How the data were processed

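Polyadenylated RNA of gonads was made into TruSeq v2 libraries from 200 ng each, per the labels' protocols. Deposited values were whole read counts per gene, made by the authors with HTSeq 0.9.1 after TopHat2 2.1.1 and Bowtie2 2.2.9 on BDGP6, per the submitters' processing notes. HTSeq's summary lines (12.0% to 17.1% of reads) were left out. Symbols were found for 17253 of 17559 IDs, and positions and transcript lengths came from Ensembl's BDGP6 annotation.

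Each comparison was fitted on its 6 libraries with edgeR 4.0.16 (R 4.3.3): TMM scaling, filterByExpr, quasi-likelihood test, Benjamini-Hochberg adjustment over all genes tested, threshold 0.05. The SE is the log2 fold change divided by the square root of F. The scripts were tested on simulated data. Replicates of a group differed beyond counting noise (chi-square per degree of freedom at least 9.98). Floors (3 counts) and Wilson intervals cover counting error only.

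Alternatives were other scalings and filters, DESeq2 1.42.0, all libraries in 1 fit, a replicate block, removal of a length trend, and leaving out each replicate. Scaling to member counts and omission of the 3 libraries of highest member share were added after the data were seen. The members and gene lists were chosen with earlier results of these data known. Named were called members, the 5 highest per kb, members under 10 CPM, gene pairs, members spanning over 2-fold, and up to 4 genes per list by p. Others are named as examples chosen after their values were seen. Some ribosomal protein genes outside the rule are not reported here.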

Additional observations from a re-analysis of the deposited data

Results flagged for a closer look

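RpL37-2 was singled out because its sex effect and its Sxl effect differed. The log2 difference was 5.01 ± 0.61 (SE), from a contrast in the edgeR fit of all 12 libraries (adjusted p = 0.000146). It was higher in 3 of 3 testes than in every ovary library, and it ran from 4.58 to 5.38 when each replicate was left out in turn.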

How the results depend on the processing

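The base is all 74 members, and shares of all genes called the same way are in brackets. With DESeq2 (18.8%) and with all 12 libraries in 1 fit (20.2%), 2 members were higher in testes. So were 2 with the length trend removed (27.1%), relative to summed member counts (10.6%) and without the 3 libraries of highest member share (18.9%). When a replicate was left out, 1 to 2 were higher (2 without testis 3, where 17.3% of all genes were higher). The lower count was 20 with the length trend removed (23.4%) and 2 relative to summed member counts (7.03%). In mCherry RNAi over bam ovaries, 1 was higher with the length trend removed (7.71%). Without the libraries of highest share 1 was higher as well, and 56 were lower (9.02%). The sex and Sxl effects differed for 1 to 3 members when a replicate was left out. The count was 3 without testis 2, adding RpL17 and RpS6, where 25.6% of all genes differed. The effects differed for 5 members relative to member counts (15.5%) and for 12 without the libraries of highest share (28.8%). The cause was not tested.

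As a share of reads per kilobase, members took 30.4% in bam ovaries, 21.9% in testes, 27.1% in mCherry RNAi and 28.2% in Sxl RNAi ovaries. CG18628 alone took 11.96% to 17.6% of that sum in testes and at most 0.259% in ovaries, and without it the members took 23.4% to 29.1% in testes. In Sxl RNAi ovaries the read share was 11.2% with summary lines included and 14.1% without the 10 largest other genes.

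Sign changes of single genes were within their error. RpL17 ran from -0.51 to 0.011 in testes over ovaries, RpL37-2 from -0.025 to 0.52 after Sxl RNAi and RpL37-1 from -0.43 to 0.0055 in mCherry RNAi over bam ovaries when a replicate was left out. In the last comparison RpL17 was at 0.0030 and RpL37-1 at 0.016 relative to member counts. Medians ran from -0.34 to 0.20 for sex, -0.03 to 0.28 for Sxl RNAi and -0.44 to 0.01 for mCherry RNAi under the same omissions.

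Deviations of same-numbered replicates from their group means correlated at 0.05, -0.43 and -0.62 for sex and -0.15, -0.34 and 0.07 for Sxl RNAi. For mCherry RNAi the values were 0.42, -0.42 and -0.31. Replicates of different number ran from -0.49 to 0.60 there, and the deviations of 3 replicates sum to 0. These values therefore cannot show whether a replicate number marks a shared preparation. With a replicate block, RpL37-2 was still the 1 member higher in testes (5.20) and 0 members were lower. Of all genes, 8.48% were higher and 8.93% lower in that fit, against 16.4% and 16.3% without the block. RpL37-2 was also the 1 member whose effects differed with the block (5.00), and 0 members were called between ovaries. The members' medians with the block were -0.04, 0.08 and -0.22, in the same order of comparisons.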
